A study of Mus musculus with 12 samples.

Results

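The tumour necrosis factor (TNF) superfamily was followed in whole mouse kidney during obstruction of the ureter. Its members were taken by gene symbol: Tnf itself, the ligand symbols that begin with Tnfsf and the receptor symbols that begin with Tnfrsf. This gave 33 of the 55471 genes in the deposited table, namely 12 ligands, 20 receptors and 1 antisense RNA, Tnfsf13os, whose symbol carries the same stem. The 12 libraries of left kidney RNA fell into 4 groups. They came from wild type mice at day 0 (n = 2) and day 5 (n = 3) and from Sprr2f knockout mice at day 0 (n = 4) and day 5 (n = 3). All mice carried the strain label C57/BL6, and the protocol shared by all samples gives an age of 8 to 12 weeks. Unilateral ureteral obstruction was made with a microvascular clamp, and day 0 and day 5 are the times of harvest after it. The labels do not say whether day 0 kidneys had surgery, how the knockout allele was made, or whether replicates are separate animals, so a p-value here reflects how far these samples spread, which may be technical.

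Ligands of the superfamily are trimeric proteins, most of them anchored in the cell membrane and some released by proteases. Their receptors either carry a death domain, which can recruit caspases, or bind TRAF adaptor proteins, which lead to NF-kappaB and kinase signalling; some receptors lack a working tail and act as decoys. In the kidney, TNF and TWEAK (the product of Tnfsf12) are known for their part in tubular injury and inflammation, and many other members are signals between lymphocytes and antigen-presenting cells.

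Stretches of the start regions are printed for 4 genes that the results below turn on: the receptor genes Tnfrsf12a, Tnfrsf1b and Tnfrsf9, whose transcripts were several fold more abundant at day 5, and Tnf, the founding ligand. They are RefSeq promoter sequences of build GRCm38.p6, each read 5′ to 3′ on the strand of the gene. The 3 longer stretches end where the annotated gene begins, which for Tnfrsf12a lies upstream of the RefSeq start; Tnfrsf9 is shown by shorter windows. The Tnfrsf12a stretch covers chr17:23677469-23677699 on the minus strand, the Tnfrsf1b stretch chr4:145246871-145247120 on the minus strand and the Tnf stretch chr17:35202008-35202257 on the minus strand.
Tnfrsf12a: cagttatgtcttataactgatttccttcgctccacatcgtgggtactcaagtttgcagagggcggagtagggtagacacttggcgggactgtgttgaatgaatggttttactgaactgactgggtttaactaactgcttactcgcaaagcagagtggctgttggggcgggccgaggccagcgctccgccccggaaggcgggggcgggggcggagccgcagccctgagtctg
Tnfrsf1b: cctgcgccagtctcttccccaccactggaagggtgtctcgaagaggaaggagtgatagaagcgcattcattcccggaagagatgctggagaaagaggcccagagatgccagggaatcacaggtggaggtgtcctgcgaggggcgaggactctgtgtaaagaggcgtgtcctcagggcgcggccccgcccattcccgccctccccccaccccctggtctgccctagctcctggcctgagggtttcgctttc
Tnf: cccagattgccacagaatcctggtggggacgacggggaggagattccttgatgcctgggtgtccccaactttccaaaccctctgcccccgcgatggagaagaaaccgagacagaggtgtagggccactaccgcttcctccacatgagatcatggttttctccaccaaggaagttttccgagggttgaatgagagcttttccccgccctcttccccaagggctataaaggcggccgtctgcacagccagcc

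Start regions were searched on both strands for the kappa B consensus, the site class of NF-kappaB proteins, and for the AP-1 site TGANTCA. RefSeq promoters, which run from 250 bases before to 50 bases after a start, were found for 25 of the 33 members, with 29 promoters in all. The kappa B consensus occurred in 3 of these 29, in Tnfrsf25, Tnfrsf8 and Tnfrsf9, while 5.81% of all 32851 promoters of the table held it. The AP-1 site occurred in 6 of the 29, in Tnfrsf8, Tnfrsf9, Tnfsf13, Tnfsf14 and 2 promoters of Tnfsf13b, while 7.81% of all promoters held it. The 2 promoters of Tnfsf13b overlap (chr8:10006217-10006516 and chr8:10006383-10006682) and hold the same site, so that site is counted 2 times. The sequences of Tnfrsf12a, Tnfrsf1b and Tnf printed above held neither set of letters, so they stand in lower case. Tnfrsf9 has 2 promoters in the table. Both have their start inside the annotated gene, which runs from 150914562 to 150946102. The upstream promoter held neither motif, while the downstream one had both kinds of match close together. These matches are shown here in capitals in 30-base windows from chr4:150927947-150927976 and chr4:150927969-150927998 on the plus strand. The capitals of the first window are 2 overlapping kappa B matches, and those of the second are the AP-1 match. A match is a description of the letters and no measurement of binding.
Tnfrsf9, kappa B consensus: agagcagctGGGGATTTCCCaggaggccct
Tnfrsf9, AP-1 site: gaggccctgctcagtTGAGTCAcaggtcct

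Each library held 16567256 to 19398882 reads of 50 bases counted to genes, so 1 read was worth 0.0515 to 0.0604 CPM, the deposited unit, in which every library has the same total. Levels below are scaled CPM, the deposited CPM divided by a composition factor (TMM) that was 0.795 to 0.897 at day 0 and 1.13 to 1.19 at day 5. For the targeted gene, Sprr2f, wild type kidneys gave 2 and 0 reads before obstruction and then 482, 447 and 1138. Knockout kidneys gave 5, 2, 0 and 0 reads before and 0, 39 and 76 after, so the label was matched by low but not always absent reads at day 5, and day 0 could not check it. The series title speaks of female mice, yet 7 of 12 libraries held Y-linked transcripts (112 to 170 CPM summed, against 0.281 to 0.979 in the other 5, which had Xist at 481 to 893 CPM). Y-linked transcripts marked every knockout kidney at day 0 (4 of 4), 1 of 3 obstructed knockout kidneys, 1 of 3 obstructed wild type kidneys and 1 of 2 wild type kidneys at day 0. Sex pattern and day thus overlap in part in the knockout. Where the labels leave sex unstated, results are also given within each pattern.

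After 5 days of obstruction most tested members of the superfamily were higher in each genotype. Of the 28 members with enough reads to test, 17 were higher and 0 lower at day 5 in wild type, a share of 60.7%, where 24.5% of all 18093 tested genes were higher, 22.6% lower and 47.1% either (limma, adjusted p under 0.05). In knockout kidneys 22 members were higher and 1, Tnfsf10, was lower, against 29.4% of all tested genes higher, 25.4% lower and 54.8% either. The called set had 15 members higher in both genotypes, and 3 (Tnf, Tnfsf13 and Tnfsf15) passed in neither. The matching shares of all tested genes were not computed, so both counts only describe the members. On the log2 scale the median member changed by 1.14 in wild type kidneys and by 0.93 in knockout ones, where the median of all tested genes was 0.04 and 0.07. The medians of ligands and receptors were 1.13 and 1.16 in wild type and 0.78 and 1.06 in knockout. Scaled to library size alone, 23 members were higher in wild type and 24 in knockout, but 81.1% and 82.3% of all called genes were then higher, against 52.1% and 53.7% with the factors used here. Every change in scaled CPM or log2 units is therefore stated relative to those factors, unless another scaling is named. Read shares pooled over libraries, and folds against a floor of reads, are given below without the factors. They come out larger than they would with them. Members had to pass a filter on low reads, so these counts leave out Tnfsf4, Tnfsf18, Tnfrsf8, Tnfrsf13c and Tnfrsf17. A further 6 (Tnfsf8, Tnfsf11, Tnfsf14, Tnfsf13os, Tnfrsf9 and Tnfrsf11b) passed it only through day 5 libraries, so that they could hardly come out lower, and 0 passed only through day 0. They gave 4 of the members called higher in wild type and 5 in knockout, while the other 22 members gave 13 and 17. The medians above include these 6, and no median without them was computed. Among all tested genes, 1727 passed only through day 5 libraries and 381 only through day 0. Kidney pieces hold many cell types, and in such samples more cells of a type cannot be told apart from more RNA per cell.

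**Figure D1:**
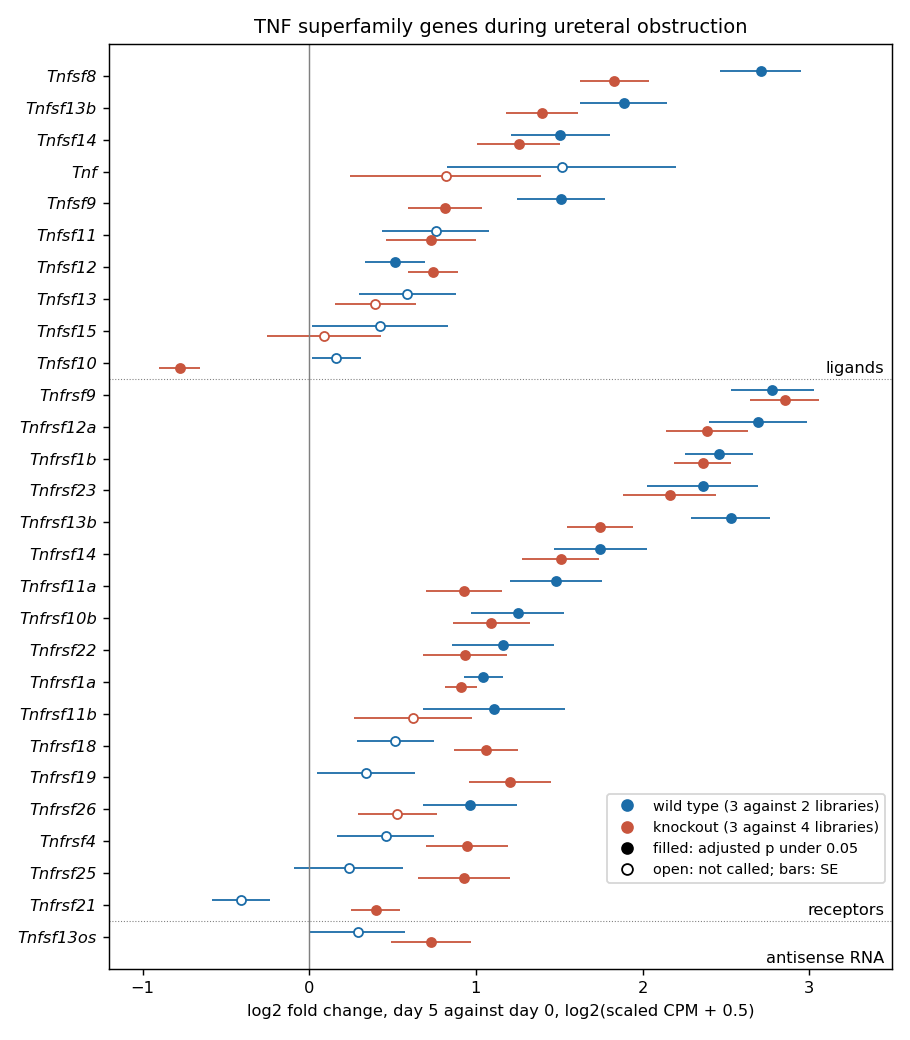
Log2 fold change of the 28 tested members at day 5 against day 0 on the log2(scaled CPM + 0.5) scale, with bars of 1 SE; filled points passed adjusted p under 0.05 in limma, blue for wild type and red for knockout. Nearly all points lie right of 0, Tnfrsf9, Tnfrsf12a and Tnfrsf1b lie above 2 in both genotypes, and Tnfsf10 is the only called point on the left.

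Libraries of the 2 days were fully separated for most members. In wild type 19 of 28 members had every day 5 library above every day 0 library, where 34.4% of all tested genes did, and 0 were separated downward, where 30.7% of genes were. In knockout 21 members were separated upward, against 29.5% of all genes, and 1 downward, against 25.6%. The upward counts include members that passed the filter only through day 5 libraries and could hardly be separated downward. These were Tnfsf8, Tnfsf11, Tnfsf14, Tnfrsf9 and Tnfrsf11b in wild type, and Tnfsf8, Tnfsf14, Tnfrsf9 and Tnfsf13os in knockout. All 17 members called in wild type had the same direction among Y-linked libraries (1 against 1) and among Xist libraries (2 against 1). Each of the 17 was fully separated between days, so no other outcome was possible. The 23 members called in knockout kept their direction in the Y-linked libraries (1 against 4), while the Xist libraries of that genotype held day 5 samples only. All of the 23 but Tnfsf11 and Tnfrsf25 were separated between days, so this too was nearly fixed. Directions within sex patterns are therefore a description and no check on sex. With the pattern as a term in the fit, 1 of the 28 members, Tnfrsf11a, differed between patterns (0.62 ± 0.14 SE log2 units higher in Y-linked libraries, adjusted p = 0.0157, limma), as did 7.94% of all genes.

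Tnf itself, the macrophage and lymphocyte cytokine that gives the family its name (chromosome 17, 35199381 to 35202007, minus strand, GRCm38), had few and uneven reads. The wild type kidneys held 0.121 and 3.87 scaled CPM at day 0, then 3.54, 5.29 and 3.94. Knockout kidneys held 1.98, 0.911, 0.130 and 1.43 at day 0, then 1.5, 3.01 and 1.81. The days overlapped in both genotypes. In wild type the day 0 library at 3.87 lay within the range of the obstructed kidneys. In knockout the day 0 library at 1.98 lay above the day 5 libraries at 1.5 and 1.81. The log2 change was 1.51 ± 0.69 (SE) in wild type (adjusted p = 0.0881) and 0.82 ± 0.57 in knockout (adjusted p = 0.247, limma). Either wild type library at day 0 moved the value: without replicate 2 it was 2.93 (adjusted p = 0.00224), and without replicate 1 it was 0.10 (adjusted p = 0.916). Scaled to library size alone, Tnf passed in wild type (1.82, adjusted p = 0.0307).

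The receptors for TNF rose in every obstructed kidney. Tnfrsf1a (chromosome 6, 125349362 to 125362484, plus strand) encodes the widely expressed death-domain receptor. Wild type kidneys started at 68.3 and 68.7 scaled CPM and reached 148, 134 and 144. Knockout libraries had 78.1, 74.3, 61.5 and 62.1 at day 0 and 116, 139 and 134 at day 5. Days did not overlap, and the 2 wild type libraries at day 0 were nearly equal. On the log2 scale the rise was 1.04 ± 0.12 in wild type (adjusted p = 1.18e-05) and 0.91 ± 0.10 in knockout (adjusted p = 5.98e-06, limma).

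Tnfrsf1b (chromosome 4, 145213463 to 145246870, minus strand) encodes the TNF receptor without a death domain, which signals through TRAF2 and is common on leukocytes and endothelium. It had 5.81 and 5.86 scaled CPM in wild type at day 0 and 36.4, 28.6 and 39.1 at day 5. Knockout values were 7.29, 5.09, 5.19 and 5.42 at day 0 and 24.2, 38.4 and 32.9 at day 5. The lowest obstructed kidney was thus more than 3 times the highest kidney at day 0. The change of 2.46 ± 0.20 in wild type (adjusted p = 1.16e-06) and 2.36 ± 0.17 in knockout (adjusted p = 2.36e-07), both log2, was a 5.95-fold and 5.55-fold rise of the group means.

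Tnfrsf12a, which encodes the TWEAK receptor Fn14, known to be induced on injured tubular cells and fibroblasts, had the most abundant transcript among the members that rose more than 2 log2 units in both genotypes (chromosome 17, 23675445 to 23677468, minus strand). Wild type kidneys had 31.3 and 20.7 scaled CPM at day 0 and 131, 202 and 177 at day 5. Knockout kidneys had 26.0, 34.9, 29.2 and 22.3 at day 0 and 121, 231 and 114 at day 5. Each obstructed kidney exceeded each day 0 kidney, and the highest knockout value at day 5 came from the Y-linked library of that group. The log2 rise was 2.69 ± 0.29 in wild type (adjusted p = 9.99e-06) and 2.39 ± 0.25 in knockout (adjusted p = 4.38e-06, limma). Its ligand gene Tnfsf12 rose less, by 0.52 ± 0.18 (adjusted p = 0.0316) and 0.74 ± 0.15 (adjusted p = 0.00108). Tnfsf12 had 10.1 and 12.9 scaled CPM in wild type at day 0 and 19.4, 15.3 and 15.2 at day 5, with 8.10 to 11.1 and 13.9 to 18.7 in knockout. The wild type call on Tnfsf12 was lost without wild type day 0 replicate 1 (0.35 log2 units, adjusted p = 0.263) or wild type day 5 replicate 1 (0.41, adjusted p = 0.109), and with no filter on low reads (0.51, adjusted p = 0.0637). Of the 1463 distinct 50-base sequences of Tnfsf12, 684 also occur in Tnfsfm13, a readthrough transcript with Tnfsf13 that had 0 to 24 reads per library.

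**Figure D2:**
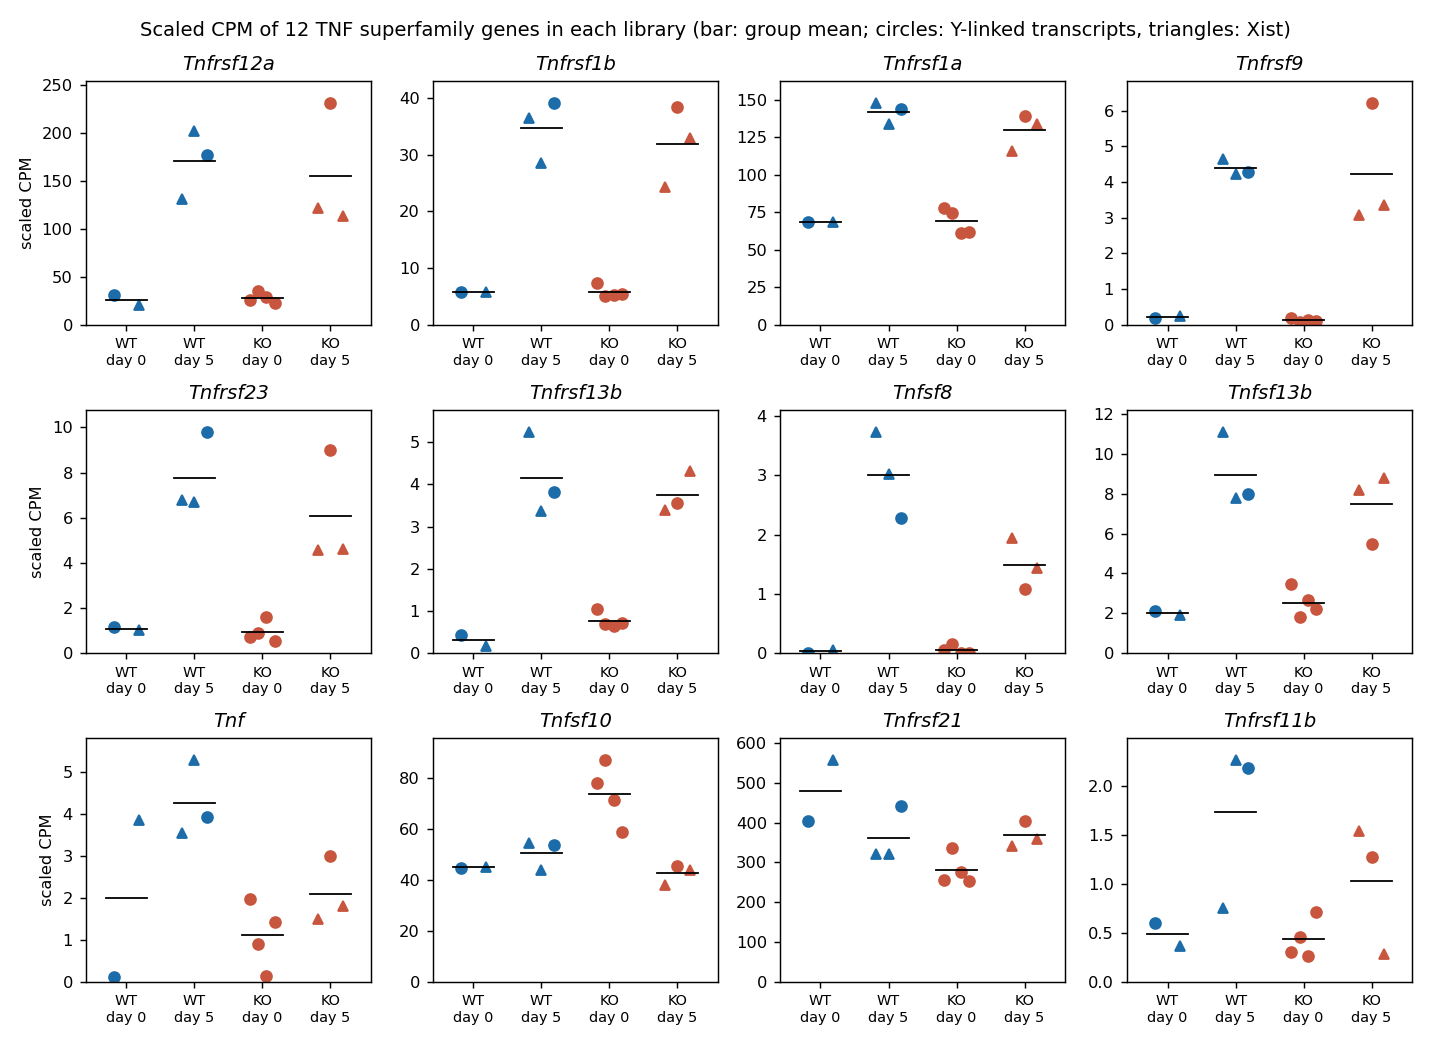
Scaled CPM (linear axes from 0) of 12 members in each of the 12 libraries, by genotype (WT wild type, KO Sprr2f knockout) and day; bars are group means, circles libraries with Y-linked transcripts and triangles libraries with Xist. Tnfrsf12a, Tnfrsf1b, Tnfrsf1a and Tnfrsf9 separate the days fully, Tnf and Tnfrsf11b do not, and Tnfsf10 is highest in the 4 knockout libraries at day 0.

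Genes of the TRAIL system differed in direction. Tnfsf10 (chromosome 3, 27317028 to 27342427, plus strand) encodes TRAIL, a ligand that can trigger apoptosis through death receptors. Wild type kidneys had 44.6 and 45.1 scaled CPM at day 0 and 54.4, 43.7 and 53.6 at day 5. In knockout it was 77.9, 86.9, 71.2 and 58.9 at day 0 and 38.1, 45.4 and 43.9 at day 5. Only the 4 knockout kidneys at day 0 stood apart; the other 3 groups overlapped. The fall in knockout was -0.78 ± 0.12 log2 units (adjusted p = 0.000181), and the wild type value was 0.16 ± 0.15 (adjusted p = 0.399, limma). Scaled to library size alone, Tnfsf10 was called higher in wild type (0.58, adjusted p = 0.00214) and remained lower in knockout (-0.33, adjusted p = 0.0169).

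Tnfrsf10b, which encodes the death-domain receptor for TRAIL in the mouse, rose in both genotypes. It had 4.78 and 2.54 scaled CPM in wild type at day 0 and 8.65, 11.4 and 7.45 at day 5. Knockout libraries had 2.79 to 4.88 at day 0 and 7.63 to 8.92 at day 5, without overlap of the days. The log2 rise was 1.25 ± 0.28 in wild type (adjusted p = 0.00251) and 1.09 ± 0.23 in knockout (adjusted p = 0.00156). Without wild type day 0 replicate 2 the wild type value was 0.85, with an adjusted p of 0.0506.

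The mouse has further TRAIL-binding receptors without a death domain, encoded by Tnfrsf22 and Tnfrsf23, which lie next to Tnfrsf26 in a stretch of chromosome 7 from 143607659 to 143685872. Tnfrsf23 had 1.15 and 1.03 scaled CPM in wild type at day 0 and 6.81, 6.70 and 9.82 at day 5, with 0.536 to 1.62 and 4.58 to 9.02 in knockout. Its log2 rise was 2.36 ± 0.33 in wild type (adjusted p = 8.09e-05) and 2.16 ± 0.28 in knockout (adjusted p = 2.98e-05). Tnfrsf22 rose by 1.16 ± 0.30 (adjusted p = 0.00706) and 0.93 ± 0.25 (adjusted p = 0.00762), and its wild type call was lost without wild type day 0 replicate 2 (0.89, adjusted p = 0.0889). Both were higher at day 5 in every library, but they share 719 of their 50-base sequences, so reads could be split between them. Tnfrsf26 rose in wild type by 0.97 ± 0.28 (adjusted p = 0.0129) and had 0.53 ± 0.24 in knockout (adjusted p = 0.0747). Leaving out wild type day 0 replicate 1 gave 0.63 for Tnfrsf26, with an adjusted p of 0.168.

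Tnfrsf21, which encodes the death-domain receptor DR6, had the highest median level per exon length of all members on both days (chromosome 17, 43016555 to 43089189, plus strand). These medians take both genotypes together, and at day 5 the range of Tnfrsf21 overlapped that of Tnfrsf12a. Wild type libraries had 403 and 558 scaled CPM at day 0 and 320, 322 and 442 at day 5. Knockout libraries had 256, 336, 277 and 254 at day 0 and 341, 405 and 359 at day 5. Knockout kidneys did not overlap between days, whereas the wild type days overlapped. The log2 change was -0.41 ± 0.18 in wild type (adjusted p = 0.0737) and 0.40 ± 0.15 in knockout (adjusted p = 0.0356, limma). These calls were fragile. The wild type fall passed without wild type day 5 replicate 3 (-0.56, adjusted p = 0.0176) or wild type day 0 replicate 1 (-0.65, adjusted p = 0.0257), and scaled to library size it was 0.01. The knockout call was lost without any 1 of 5 libraries: day 5 replicates 2 (0.33, adjusted p = 0.111) and 3 (0.42, adjusted p = 0.0641), and day 0 replicates 1 (0.34, adjusted p = 0.106), 3 (0.37, adjusted p = 0.0902) and 4 (0.33, adjusted p = 0.113). It was also lost in DESeq2 (0.35, adjusted p = 0.0561), with RLE factors (0.36, adjusted p = 0.0652) and with no filter on low reads (0.38, adjusted p = 0.0847).

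The pair of Tnfrsf25, which encodes the death receptor DR3 of T cells, and its ligand gene Tnfsf15 gave 1 call. Tnfrsf25 had 3.27 and 2.30 scaled CPM in wild type at day 0 and 2.65, 4.43 and 3.11 at day 5, with 1.97 to 3.15 and 2.96 to 7.54 in knockout. It was called in knockout only (0.93 ± 0.27, adjusted p = 0.0120), with 0.24 ± 0.33 in wild type (adjusted p = 0.586). The call was lost without knockout day 5 replicate 1 (0.63, adjusted p = 0.0698) and with sex pattern in the fit (0.75, adjusted p = 0.0601). Tnfsf15 had 1.15 to 2.59 scaled CPM at day 0 and 1.23 to 4.19 at day 5 over both genotypes, and changed by 0.42 ± 0.41 (adjusted p = 0.424) and 0.09 ± 0.34 (adjusted p = 0.844). Its sign turned without wild type day 0 replicate 1 (-0.01 in wild type), and without knockout day 5 replicate 1 (-0.32) or knockout day 0 replicate 2 (-0.09) in knockout.

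Several costimulators of lymphocytes went from a few reads at day 0 to clear levels at day 5. Tnfrsf9 (chromosome 4, 150914562 to 150946102, plus strand), which encodes the receptor CD137 of activated T cells, had 3 and 4 reads in wild type at day 0, 0.182 and 0.242 scaled CPM. At day 5 it had 4.63, 4.23 and 4.29. Knockout libraries had 0.185, 0.0759, 0.130 and 0.119 at day 0 and 3.09, 6.21 and 3.34 at day 5. All 6 obstructed kidneys lay more than 10-fold above all 6 day 0 kidneys. Per read counted and without the composition factors, pooled day 5 libraries held 27.8 times the day 0 share in wild type (95% exact binomial interval 13.3 to 69.7). In knockout they held 43.7 times that share (21.8 to 102), and both intervals cover counting error only. Group means of scaled CPM were 20.7-fold higher in wild type and 33.0-fold higher in knockout. The fitted rise was 2.78 ± 0.25 log2 units (adjusted p = 2.19e-06) and 2.85 ± 0.21 (adjusted p = 2.63e-07, limma). That scale understates the change of genes with few reads. Tnfrsf9 passed the filter on low reads only through day 5 libraries, so it could hardly come out lower. Its ligand gene Tnfsf9 had 0.182 and 0.121 scaled CPM in wild type at day 0 and 1.18, 1.76 and 1.18 at day 5. Knockout values were 0.803, 0.228, 0.713 and 0.714 at day 0 and 1.68, 1.28 and 1.30 at day 5, again with no overlap of days. The rise of Tnfsf9 was 1.51 ± 0.26 (adjusted p = 0.000446) and 0.81 ± 0.22 (adjusted p = 0.00748). On the opposite strand Gm11110 overlaps 192 exonic bases of Tnfsf9, and whether the counting used strand is not given in the sources used here.

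Tnfsf8 (chromosome 4, 63831308 to 63861347, minus strand), which encodes the CD30 ligand of activated lymphocytes and myeloid cells, was close to absent at day 0. Wild type libraries gave 0 and 1 reads there, and knockout libraries 1, 2, 0 and 0. At day 5 scaled CPM was 3.73, 3.02 and 2.28 in wild type and 1.94, 1.08 and 1.44 in knockout. Obstructed kidneys were thus separated from all day 0 kidneys, and the wild type ones also from the knockout ones. The pooled share rose 132.6 times in wild type (95% interval 23.5 to 5265, from 1 read at day 0) and 42.1 times in knockout (14.0 to 207.8, from 3 reads). These shares leave out the composition factors, and the intervals cover counting error only. Group means of scaled CPM rose 99.7-fold in wild type and 27.9-fold in knockout. The fitted rise was 2.71 ± 0.25 (adjusted p = 2.31e-06) and 1.83 ± 0.21 (adjusted p = 9.22e-06, limma). Tnfsf8 too passed the filter only through day 5 libraries, so its direction was nearly fixed. The receptor gene Tnfrsf8 stayed below the filter, with 3 reads in wild type at day 0 and 19 at day 5, and 7 and 16 in knockout.

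Tnfrsf14 encodes HVEM, a receptor on lymphocytes and epithelia, and Tnfsf14 encodes its ligand LIGHT. Tnfrsf14 had 2.24 and 1.45 scaled CPM in wild type at day 0 and 8.46, 7.81 and 5.78 at day 5, with 1.06 to 2.14 and 3.79 to 5.73 in knockout. It rose by 1.75 ± 0.28 log2 units (adjusted p = 0.000210) and 1.51 ± 0.23 (adjusted p = 0.000130). Ligand and receptor transcripts rose together here. Tnfsf14 had 0.303 and 0.121 scaled CPM in wild type at day 0 and 1.32, 1.36 and 1.88 at day 5. In knockout Tnfsf14 had 0.433, 0, 0.389 and 0.0595 at day 0 and 0.882, 1.38 and 1.25 at day 5. The rise was 1.51 ± 0.30 (adjusted p = 0.00104) and 1.26 ± 0.25 (adjusted p = 0.000880, limma), without overlap of days. Since Tnfsf14 passed the filter only through day 5 libraries, it could hardly come out lower.

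Tnfrsf4 and Tnfrsf18 encode OX40 and GITR, receptors found on activated and regulatory T cells, and lie next to each other near the end of chromosome 4. Tnfrsf18 rose in knockout, from 1.06 to 1.36 scaled CPM at day 0 to 2.46 to 3.48 at day 5 (1.06 ± 0.19 log2 units, adjusted p = 0.000484). In wild type it had 1.88 and 2.54 at day 0 and 4.30, 2.52 and 3.42 at day 5 (0.52 ± 0.23, adjusted p = 0.0828), and passed without wild type day 5 replicate 2 (0.69, adjusted p = 0.0306). Tnfrsf4 had the same order, with 0.95 ± 0.25 in knockout (adjusted p = 0.00551) and 0.46 ± 0.29 in wild type (adjusted p = 0.222). For both genes the knockout libraries at day 0 were lower than at least 1 wild type library, and the difference between the 2 changes was not called by limma (adjusted p of the interaction 0.704 for Tnfrsf18 and 0.780 for Tnfrsf4). Gm16008 overlaps 414 exonic bases of Tnfrsf18 on the opposite strand. Their ligand genes were barely detected. Tnfsf18 had 0 reads in all 6 day 0 libraries and 11 and 7 reads at day 5 in wild type and knockout. Against a floor of 3 reads over the group, that was at least 2.55-fold and 3.04-fold higher per read counted, without the composition factors. Tnfsf4 went from 0 reads to 7 in wild type and from 4, all in 1 library, to 1 in knockout.

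Among genes for B cell survival signals, the ligand gene Tnfsf13b and the receptor gene Tnfrsf13b rose, the ligand gene Tnfsf13 was not called, and Tnfrsf13c and Tnfrsf17 had too few reads to test. Tnfsf13b (chromosome 8, 10006467 to 10039072, plus strand) encodes BAFF, which keeps B cells alive and comes mainly from myeloid and stromal cells. Wild type kidneys started at 2.12 and 1.93 scaled CPM and reached 11.1, 7.76 and 7.97. Knockout libraries had 3.46, 1.82, 2.66 and 2.20 at day 0 and 8.20, 5.47 and 8.78 at day 5. The log2 rise was 1.89 ± 0.26 in wild type (adjusted p = 6.92e-05) and 1.40 ± 0.22 in knockout (adjusted p = 0.000147).

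Tnfrsf13b (chromosome 11, 61126755 to 61149372, plus strand) encodes TACI, a BAFF receptor of B cells, and was the one gene of a BAFF receptor with enough reads to test. It had 0.424 and 0.181 scaled CPM in wild type at day 0 and 5.25, 3.38 and 3.81 at day 5. Knockout libraries had 1.05, 0.683, 0.648 and 0.714 at day 0 and 3.39, 3.55 and 4.32 at day 5. Every obstructed kidney was above every day 0 kidney, and at day 0 the knockout libraries were above the wild type ones. The rise was 2.53 ± 0.24 (adjusted p = 2.81e-06) and 1.74 ± 0.20 (adjusted p = 9.86e-06). Tnfrsf13c, the gene of the BAFF receptor of mature B cells, had 4 reads over the wild type libraries at day 0 and 13 at day 5, with 7 and 16 in knockout. Its day 5 share, per read counted and without the composition factors, was 2.26 times that of day 0 in wild type. The 95% exact binomial interval was 0.697 to 9.5. In knockout the share was 2.98 times that of day 0 (1.16 to 8.56), and both intervals cover counting error only. Group means of scaled CPM for Tnfrsf13c rose less, 1.634-fold in wild type and 1.996-fold in knockout. No interval was computed with the factors. Tnfrsf17, the gene of the plasma cell receptor BCMA, went from 1 read to 2 in wild type and from 3 to 6 in knockout. Of 7 tested B and plasma cell markers, 3 were higher in wild type and 2 in knockout. Of all tested genes 24.5% and 29.4% were higher, so the knockout count was near the background.

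Tnfsf13 encodes APRIL, a second ligand of TACI, and was not called in either genotype (0.59 ± 0.29, adjusted p = 0.113 in wild type; 0.40 ± 0.24, adjusted p = 0.184 in knockout). Its scaled CPM was 0.683 to 1.45 at day 0 and 1.1 to 2.37 at day 5. The antisense RNA Tnfsf13os rose in knockout (0.73 ± 0.24, adjusted p = 0.0207) and had 0.29 ± 0.29 in wild type (adjusted p = 0.440, limma). It passed the filter only through day 5 libraries, so a fall could hardly come out. It lost the knockout call without day 0 replicate 2 (0.52, adjusted p = 0.0560) or day 5 replicate 3 (0.60, adjusted p = 0.0858), and with sex pattern in the fit (0.53, adjusted p = 0.121). The 2 genes overlap on opposite strands by 221 exonic bases, and 937 of the 1636 distinct 50-base sequences of Tnfsf13 also occur in Tnfsfm13, so both are uncertain.

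The RANK system, known from osteoclasts and lymph node development, has a ligand (Tnfsf11), a receptor (Tnfrsf11a) and a soluble decoy, osteoprotegerin (Tnfrsf11b). Tnfrsf11a had 5.14 and 2.42 scaled CPM in wild type at day 0 and 10.6, 8.52 and 14.0 at day 5. In knockout Tnfrsf11a had 5.13 to 6.61 at day 0 and 9.83 to 13.9 at day 5. It rose by 1.48 ± 0.27 (adjusted p = 0.000687) and 0.93 ± 0.23 log2 units (adjusted p = 0.00414), and its Y-linked libraries were higher, as given above. With sex pattern in the fit these values were 1.58 (adjusted p = 4.70e-06) and 1.34 (adjusted p = 1.91e-05).

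Tnfsf11 had 0 reads in wild type at day 0 and 7, 13 and 3 at day 5. Per read counted and without the composition factors, that was at least 5.32-fold higher against a floor of 3 reads over the group. Knockout kidneys gave 1, 1, 0 and 0 reads before obstruction and 15, 12 and 1 after, so 1 obstructed kidney was no higher than day 0. Tnfsf11 passed the filter only through day 5 libraries, so a fall could hardly come out. The fitted values were 0.76 ± 0.32 (adjusted p = 0.0699) and 0.73 ± 0.27 (adjusted p = 0.0354, limma). The wild type value passed without wild type day 5 replicate 3 (0.96, adjusted p = 0.0353) or knockout day 5 replicate 3 (0.75, adjusted p = 0.0238), in edgeR (adjusted p = 0.0332), in DESeq2 (adjusted p = 0.0174), with library size alone (adjusted p = 0.0468) and with 0.1 CPM added (adjusted p = 0.0306). The knockout call was lost without knockout day 5 replicate 1 (0.53, adjusted p = 0.156) or 2 (0.57, adjusted p = 0.128), or without any 1 of the 4 day 0 libraries (0.70 to 0.77, adjusted p = 0.0523 to 0.0731), and with sex pattern in the fit (0.69, adjusted p = 0.0944). Tnfrsf11b was uneven as well, with 0.605 and 0.363 scaled CPM in wild type at day 0 and 0.756, 2.27 and 2.19 at day 5. In knockout it had 0.259 to 0.714 at day 0 and 1.54, 1.28 and 0.279 at day 5. Its wild type rise of 1.11 ± 0.43 (adjusted p = 0.0478) was lost without any of 8 libraries in turn (both wild type day 0 libraries, wild type day 5 replicates 2 and 3, and each of the 4 knockout day 0 libraries), with adjusted p from 0.0534 to 0.212. With all libraries it was lost in edgeR (adjusted p = 0.0508), with RLE factors (0.0503), with 0.1 CPM added (0.0649), with only the compared groups in the fit (0.0571) and with no filter (0.101). The knockout value of 0.62 ± 0.36 (adjusted p = 0.157) passed without knockout day 5 replicate 3 (1.05, adjusted p = 0.0175, limma). Like Tnfsf11, Tnfrsf11b passed the filter only through day 5 libraries, so its direction was nearly fixed.

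Tnfrsf19 encodes TROY, a receptor without a death domain known from epithelia and the nervous system. It rose in knockout (1.21 ± 0.25, adjusted p = 0.00114), from 0.454 to 1.05 scaled CPM at day 0 to 1.67 to 3.31 at day 5. Wild type libraries had 1.94 and 1.03 at day 0 and 2.13, 1.97 and 1.75 at day 5, a change of 0.34 ± 0.29 (adjusted p = 0.371). The interaction for Tnfrsf19 was 0.86 ± 0.38, with an adjusted p of 0.649.

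Members differed widely in level per exon length (scaled RPKM, scaled CPM per kilobase of exon). At day 0 the median over 6 libraries was 74.5 for Tnfrsf21, 26.5 for Tnfrsf1a, 14.3 for Tnfrsf12a, 12.4 for Tnfsf10 and 6.27 for Tnfsf12, and the ranges of neighbours in this order did not overlap for the first 3. The ranges of Tnfrsf12a and Tnfsf10 overlapped. Tnfrsf1b followed at 1.47, and every other member was near 1 or lower. At day 5 Tnfrsf21 was at 85.2 and Tnfrsf12a at 79.8, with ranges of 78.0 to 107.6 and 58.8 to 119.6 that overlapped. Tnfrsf1a followed at 52.8, and all other members stayed near 10 or lower. The most abundant transcripts on both days were therefore receptors, and the ligand with the highest median at day 5 was Tnfsf12 at 10.1. Tnfsfm13 overlaps 731 of the 1515 exonic bases of Tnfsf12 and 983 of the 1637 of Tnfsf13 on the same strand. How reads there were counted is not given in the sources used here, so the levels per length of both genes are uncertain.

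**Figure D3:**
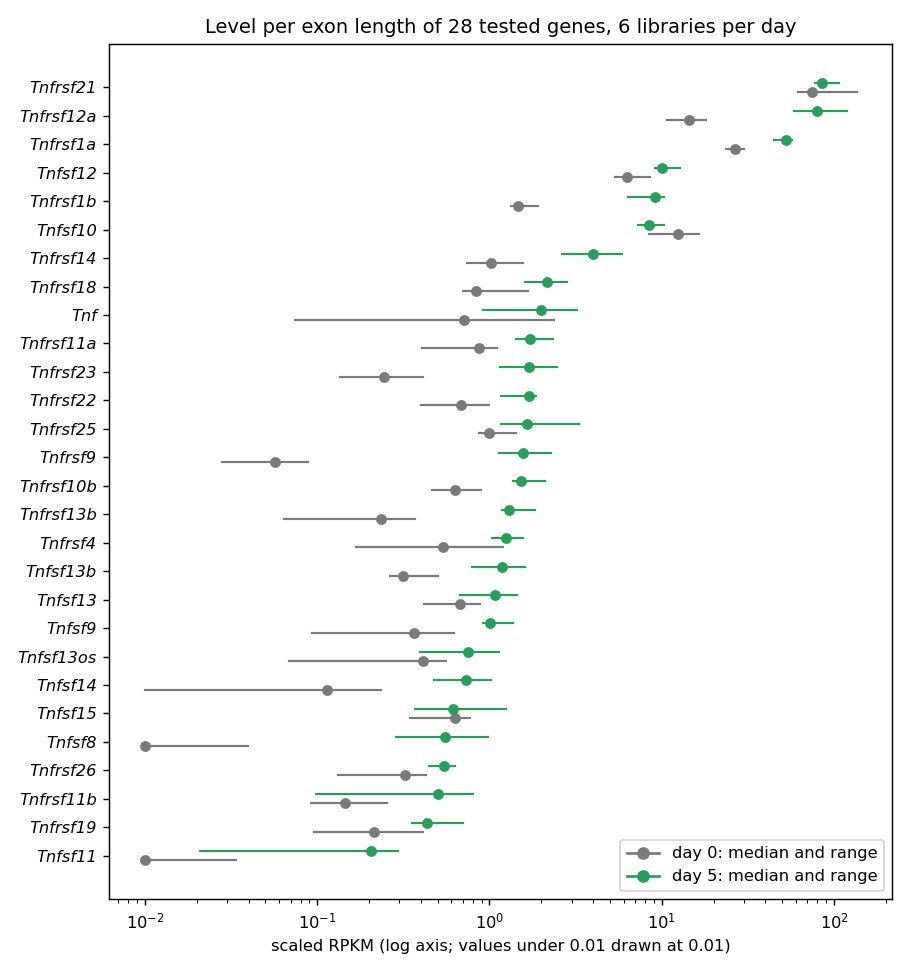
Scaled RPKM (log axis) of the 28 tested members, median and range over the 6 libraries of each day, both genotypes together, sorted by the day 5 median; values under 0.01 are drawn at 0.01. Tnfrsf12a moves from 14.3 to 79.8 and reaches the range of Tnfrsf21, and Tnfrsf9 moves from 0.0572 to 1.57.

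The ratio of paired members within a library differed between days for 4 of 5 pairs. These 5 pairs were chosen after the values had been seen, so the ratios are given as a description with no test. The log2 ratio of Tnfrsf1b to Tnfrsf1a, of (scaled CPM + 0.5), was -3.45 and -3.44 in the wild type libraries at day 0 and -2.21 to -1.87 at day 5. In knockout it was -3.74 to -3.34 and -2.24 to -1.85. Day 5 exceeded day 0 by 1.43 on average over the genotypes, and no library of one day reached the other. The ratio of Tnfrsf12a to its ligand gene Tnfsf12 was 1.91 higher at day 5, that of Tnfrsf10b to Tnfsf10 1.48 higher and that of Tnfrsf9 to Tnfsf9 1.65 higher, each again without overlap of days. For Tnfrsf13b and Tnfsf13b the difference was 0.49 and the days overlapped. That last value depended on the constant added, being 1.0 with 0.1 CPM and 0.22 with 1 CPM. The ratio of Tnfrsf9 to Tnfsf9 also leans on the constant, since Tnfrsf9 had day 0 means of 0.21 in wild type and 0.13 in knockout. Its mean log2 ratio at day 0 was 0.13 in wild type and -0.80 in knockout.

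**Figure D4:**
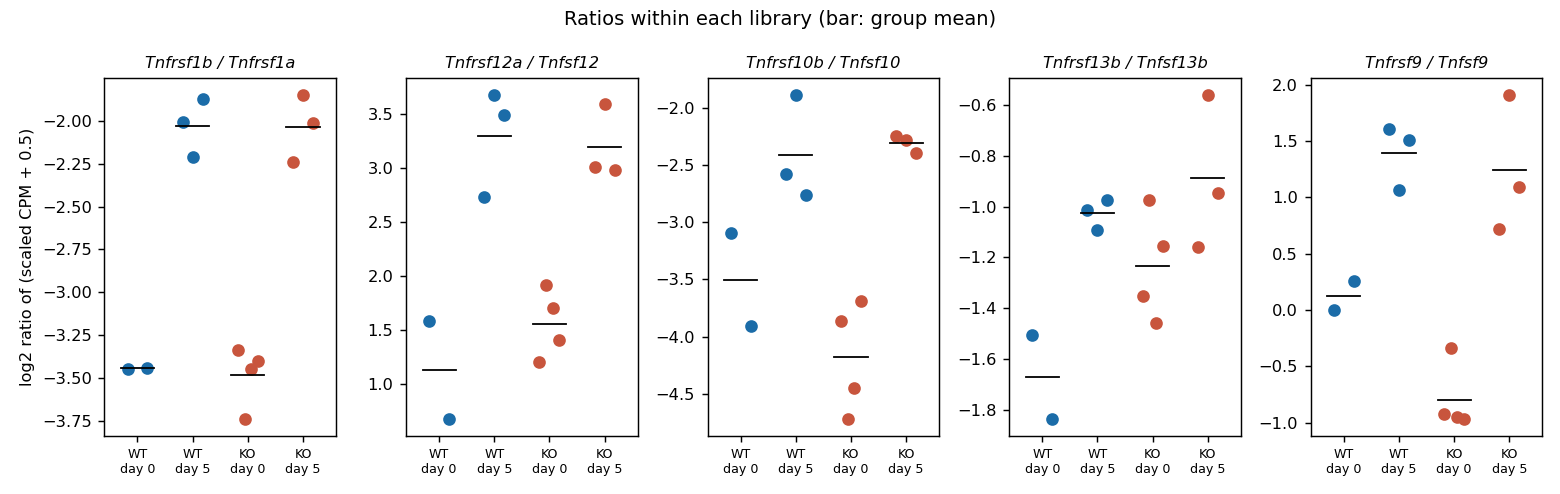
Log2 ratio of (scaled CPM + 0.5) between paired members in each of the 12 libraries, by genotype (WT wild type, KO Sprr2f knockout) and day; bars are group means. Day 5 lies above day 0 in every library for 4 pairs, and the days overlap for Tnfrsf13b and Tnfsf13b.

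Neither limma nor edgeR called a member between genotypes, whereas DESeq2 called Tnfsf10 and Tnfrsf21 at day 0. At day 0 limma called 0 of 28 members, where 0.0166% of all genes were called; at an unadjusted p under 0.05 there were 7 members (of 2709 genes). At day 5 it called 0, where 0% of all genes were called, with 1 member (of 1025 genes) at an unadjusted p under 0.05. The interaction of genotype and day gave 0, where 0.00553% of all genes were called, with 5 members (of 1374 genes) unadjusted. The edgeR test also called 0 members in each. DESeq2 called 2 at day 0, where it called 2.04% of all genes, 0 at day 5, where it called 0.282%, and 1 (Tnfsf10) for the interaction, where it called 0.26%. The median SE of a member was 0.27 log2 units at day 0 and 0.25 at day 5, which limits what these groups can show.

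Separated libraries were about as frequent as in the background. At day 0, 3 members (Tnfrsf13b, Tnfsf9 and Tnfsf10) were higher in every knockout library, against 12.9% of all genes, and 2 (Tnfrsf18 and Tnfrsf21) were lower, against 12.4%. The lead differences were Tnfsf10, 0.70 ± 0.14 log2 units higher in knockout (95% interval 0.39 to 1.0, adjusted p = 0.0810), and Tnfrsf21, -0.77 ± 0.17 (-1.13 to -0.40, adjusted p = 0.0972). DESeq2 called both (Tnfsf10 0.74, adjusted p = 0.00209; Tnfrsf21 -0.75, adjusted p = 0.00644). Limma called Tnfrsf21 without wild type day 0 replicate 1 (-0.99, adjusted p = 0.0205). All 4 knockout libraries at day 0 were Y-linked, and among Y-linked libraries alone (4 against 1) the differences were 0.70 for Tnfsf10 and -0.53 for Tnfrsf21. The interaction was -0.94 ± 0.19 for Tnfsf10 (adjusted p = 0.334; DESeq2 -0.99, adjusted p = 0.00834) and 0.81 ± 0.23 for Tnfrsf21 (adjusted p = 0.532).

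At day 5 limma and edgeR called no gene of the table between genotypes, and DESeq2 called 49 higher and 2 lower, none of them a member. Of the 28 members tested, 21 had a value below 0, that is lower in knockout (75%), where 48.6% of all genes did, and the median was -0.13 log2 units. In 3 members (Tnf, Tnfsf8 and Tnfrsf14) every knockout library was lower than every wild type library, where 4.21% of all genes were, and 0 members were separated upward, where 5.72% of genes were. Tnfsf8 differed by -0.82 ± 0.22 (95% interval -1.30 to -0.35, adjusted p = 0.655), Tnf by -0.89 ± 0.61 (-2.23 to 0.44) and Tnfrsf14 by -0.52 ± 0.25 (-1.05 to 0.02). For the abundant receptors the intervals were narrower, from -0.36 to 0.09 for Tnfrsf1a, from -0.53 to 0.26 for Tnfrsf1b and from -0.76 to 0.38 for Tnfrsf12a. Among the lists of cell markers, summed neutrophil levels at day 5 were 50.4 to 77.1 scaled CPM in wild type and 13.4 to 44.1 in knockout. NK cell sums were 5.433 to 6.55 and 4.435 to 5.341. Sums of the other marker lists overlapped between genotypes, among them macrophages with 756.4 to 955.7 in wild type and 788 to 1191 in knockout. No marker of any list was called between genotypes at day 5 by limma, and the part of these cells in the values above was not tested.

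The rest of the pathway was read from lists of known genes. For each count from these lists, the background is the share of all tested genes. That share was 24.5% higher and 22.6% lower in wild type, and 29.4% higher and 25.4% lower in knockout. Superfamily members with other symbols, such as lymphotoxin and Fas, had 7 of 12 tested genes higher in wild type and 7 in knockout, and 0 lower. Relt, an orphan receptor gene, rose by 2.40 ± 0.24 and 2.37 ± 0.20 log2 units, and Ltb, the gene of membrane lymphotoxin, by 2.24 ± 0.21 and 1.58 ± 0.17. Eda2r, the ectodysplasin receptor gene, rose by 1.36 ± 0.29 and 1.46 ± 0.24, and Ngfr, the low-affinity neurotrophin receptor gene, by 1.64 ± 0.27 and 0.99 ± 0.23. In these 4 the adjusted p was at most 0.00271.

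Among 16 receptor adaptors and death signalling genes, 8 were higher and 1 lower in wild type, and 10 higher and 2 lower in knockout. Traf1, an adaptor gene induced by NF-kappaB, went from 3.96 ± 0.30 (SD) to 38.4 ± 4.29 scaled CPM in wild type and from 3.73 ± 0.57 to 29.8 ± 15.9 in knockout. Birc3, which encodes a ubiquitin ligase bound to TRAF2, rose by 2.53 ± 0.25 and 2.46 ± 0.21 log2 units, Birc2 by 1.45 ± 0.19 and 1.61 ± 0.16, and Traf2 by 0.93 ± 0.09 and 0.83 ± 0.07. Of the 16 genes of the NF-kappaB and kinase relay, 8 were higher and 1 lower in wild type, and 8 higher and 2 lower in knockout. All 5 genes of NF-kappaB subunits rose, with Nfkb1 at 1.33 ± 0.09 and 1.46 ± 0.08, Nfkb2 at 2.06 ± 0.17 and 2.19 ± 0.14, Relb at 2.61 ± 0.30 and 2.21 ± 0.26, Rel at 1.60 ± 0.20 and 1.44 ± 0.17, and Rela at 1.02 ± 0.16 and 1.04 ± 0.14. Map3k14, the gene of the kinase NIK, rose by 1.49 ± 0.19 and 0.99 ± 0.16.

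Of 11 inhibitors and genes of TNF shedding, 7 were higher and 1 lower in wild type, and 7 higher and 3 lower in knockout. Tnfaip3, the gene of the inhibitor A20, rose by 2.49 ± 0.26 and 2.48 ± 0.21 log2 units, Nfkbie by 2.46 ± 0.22 and 2.17 ± 0.19, and Rhbdf2, which carries the sheddase ADAM17 to the cell surface, by 1.27 ± 0.12 and 1.45 ± 0.10. Timp3, the gene of an ADAM17 inhibitor, changed the other way, by -1.24 ± 0.14 and -1.44 ± 0.11. Of 17 tested genes known to respond to TNF, 15 were higher and 1 lower in each genotype. Vcam1, an adhesion molecule gene, went from 11.2 ± 2.92 to 416 ± 134 scaled CPM in wild type and from 10.2 ± 0.84 to 423 ± 291 in knockout. Icam1 rose by 2.65 ± 0.19 and 2.23 ± 0.16, and Cxcl2, a neutrophil chemokine gene, by 5.34 ± 0.36 and 4.59 ± 0.30. The lower gene was Sod2, the gene of the mitochondrial superoxide dismutase, which changed by -1.65 ± 0.09 and -1.50 ± 0.08. The gene not called was Sele in wild type (0.46 ± 0.27, adjusted p = 0.19) and Il6 in knockout (0.43 ± 0.39, adjusted p = 0.378). None of these lists had a gene called between genotypes or for the interaction in limma.

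Markers of other cells moved with the same contrast. The background for these counts is again all tested genes, with 24.5% higher and 22.6% lower in wild type and 29.4% and 25.4% in knockout. Of 8 macrophage markers, 8 were higher in both genotypes, and their summed level was 156.5 to 212.8 scaled CPM at day 0 and 756.4 to 1191 at day 5. T cell markers were higher in 7 and 6 of 8 cases, with sums of 7.87 to 10.5 and 17.2 to 36.3. NK cell markers were higher in 3 and 4 of 5, dendritic cell markers in 6 and 6 of 7, and neutrophil markers in 5 and 4 of 5 tested, with Mpo at 0 in all day 0 libraries. Fibroblast markers rose in 8 of 8, and their sum went from 396.8 to 616.9 at day 0 to 2593 to 4452 at day 5. Kidney identity was clear, since proximal tubule markers summed to 14620 to 17070 at day 0, and 8 of 8 fell, to 3444 to 5788. Endothelial markers had 1 higher and 1 lower of 7. The part of these cell markers in the changes of the superfamily was not tested.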

How the data were processed

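RNA of 12 left kidneys was sequenced with 50-base reads. The build GRCm38.p6 and the tools STAR, SAMtools and HTSeq are named per the submitters' processing notes; versions are not given in the sources used here. The values the authors deposited are CPM: every column has the same sum. The smallest step of each column gave back whole reads (100% of 665652 values within 0.001 of a whole number).

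The genes were selected by symbol, and they and the gene lists were chosen with earlier results of these data known. All 33 had GENCODE M21 coordinates. The filter filterByExpr (count of 10, total of 15) left 18093 genes. Log2(scaled CPM + 0.5), with TMM factors, was fitted with limma 3.58.1 (empirical Bayes with trend, R 4.3.3) over 4 groups in 1 model, with Benjamini-Hochberg adjustment over all tested genes at 0.05. Every member is named, and up to 4 genes of each pathway list; Rela, Map3k14, Sele and Il6 were added after their values were seen. Alternatives were edgeR 4.0.16 (quasi-likelihood) and DESeq2 1.42.0 on recovered reads, RLE factors or library size only, 0.1 or 1 CPM added, other filters, sex pattern as a term, only the compared groups, and each library left out.

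On the recovered reads edgeR called 4330 genes higher and 4130 lower for wild type obstruction, 5350 and 4482 for knockout, 0 and 3 on day 0, 0 and 0 on day 5, and 1 and 0 for the interaction. DESeq2 called 4214 and 4319, 4912 and 4807, 225 and 145, 49 and 2, and 35 and 12 in the same order.

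Tested on simulated data, the limma fit for wild type obstruction recovered 55% of 2-fold and 83% of 4-fold changes among 17563 genes, with 4.83% false calls. The knockout fit recovered 63% and 89% (17565 genes, 5.59% false). The genotype fits recovered 67% and 91% on day 0 (17555 genes, 5.95% false), then 60% and 96% on day 5 (17573 genes, 3.70% false). In each simulation few genes were changed, all upward, from a common mean profile without a shift in composition between days. Obstruction changed many genes in both directions, so these rates describe the simulated setting and not the obstruction contrasts. Protein sequences were not used here. Plotting used matplotlib 3.10.9 under Python 3.11.15.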

Additional observations from a re-analysis of the deposited data

Results flagged for a closer look

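Single libraries stood apart for 3 of the 28 tested members in the knockout group at day 0, the one group of 4. The measure is the gap of the extreme library to its neighbour over the range of the group, set against Dixon's 95% critical value for 4 samples; chance passes it in about 1 of 20 groups. For Tnfrsf1b the gap was 0.851 of the range, because replicate 1 had 7.29 scaled CPM and the others 5.09 to 5.42. For Tnfrsf13b it was 0.836, with 1.05 in replicate 1 and 0.648 to 0.714 in the others. For Tnfsf9 it was 0.843, with 0.228 in replicate 2 (3 reads) and 0.713 to 0.803 in the others. All 3 genes were called higher at day 5 in knockout without each library in turn.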

How the results depend on the processing

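Counts of called members ranged from 15 to 23 in wild type and from 20 to 25 in knockout over all alternatives, with library size alone giving the most (23 and 25); that scaling moved the median of all genes by 0.37 and 0.38 log2 units. Of 40 called member changes, 31 held in every alternative. Between genotypes at day 0, DESeq2 called 2 members (and 2.04% of all genes) where limma called 0, and leaving out libraries gave 0 to 1; for the interaction DESeq2 called 1 (and 0.26% of all genes). The cause was not tested. Direction turned for Tnfrsf21 in wild type with library size alone (0.014), and for Tnfsf15 in knockout with sex pattern in the fit (-0.33). With libraries left out, Tnfsf15 ranged from -0.32 to 0.39 in knockout and from -0.0054 to 0.85 in wild type. Among single-gene results, 12 lost and 11 gained a call over the settings that kept all libraries, and 27 lost and 7 gained one when a library was left out. No paired analysis was possible because the labels give no replicate numbers shared between groups. Leaving out a wild type day 0 library leaves 1 sample there, assumed to vary like the other groups. Depth limits Tnfsf4, Tnfsf18, Tnfrsf8, Tnfrsf13c and Tnfrsf17, which had 0 to 7 reads per group at day 0.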
